A study of Homo sapiens with 2 samples.

Results

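The aldo-keto reductase family 1 genes AKR1A1, AKR1B1, AKR1B10, AKR1C1, AKR1C2, AKR1C3 and AKR1C4 were followed in a 5-fluorouracil (5-FU) resistant colorectal cancer cell line and its sensitive parent. The members were chosen by gene name and are 7 of the 36953 genes measured. They carried 87 exon regions, 402 exon junctions, 142 exon-intron boundaries and 14 transcripts. MIP/5FU, the resistant line, is a clone grown out of MIP101 by passage in rising doses of 5-FU, a drug that starves cells of thymidylate and enters RNA. It was kept in 5 µM drug, and its IC50 for 5-FU was 10-fold above that of the parent. MIP101, the sensitive line, came from a liver metastasis of a colorectal cancer, and before RNA was taken both lines grew for about 48 hours in medium free of drug. Polyadenylated RNA was sequenced in 1 library per line. No difference given here therefore has a replicate check, and what sets a single clone apart from its parent cannot be told apart from the effect of resistance.

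Aldo-keto reductases are mostly cytosolic enzymes that use NADPH to reduce aldehydes and ketones to alcohols. AKR1A1 and the AKR1B enzymes act on sugars, reactive aldehydes and retinaldehyde. The AKR1C enzymes act on ketosteroids and prostaglandins as well as on carbonyl groups of foreign compounds, and several of these genes are known targets of the stress-activated transcription factor NRF2.

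The 4 AKR1C genes lie beside each other on chromosome 10 and are close copies, so the letters that separate them decide how far their values can be read apart. Reference transcripts of GENCODE release 29 on GRCh38 share with the deposited exon regions a run of 7 internal exons of the same lengths, 845 bases in all. Over this run AKR1C1 and AKR1C2 differed at 18 bases, AKR1C1 and AKR1C3 at 69, AKR1C2 and AKR1C3 at 74, and AKR1C4 differed from the other copies at 91 to 97. Reads were 42 or 36 bases long. Of the 804 windows of 42 bases along the run, 59.1% of those of AKR1C1, 61.6% of AKR1C2, 29.7% of AKR1C3 and 17.4% of AKR1C4 occurred letter for letter in at least 1 other copy. The exon that separates the copies least is 166 bases long and is numbered 9 in AKR1C1 and AKR1C2, 7 in AKR1C3 and 10 in AKR1C4. It is shown because a result below rests on it, with capitals at the 15 positions where the 4 copies are not all alike.
AKR1C1: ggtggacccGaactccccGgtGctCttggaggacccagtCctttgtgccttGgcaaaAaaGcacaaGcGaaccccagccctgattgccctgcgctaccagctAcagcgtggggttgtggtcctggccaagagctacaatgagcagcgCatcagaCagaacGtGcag
AKR1C2: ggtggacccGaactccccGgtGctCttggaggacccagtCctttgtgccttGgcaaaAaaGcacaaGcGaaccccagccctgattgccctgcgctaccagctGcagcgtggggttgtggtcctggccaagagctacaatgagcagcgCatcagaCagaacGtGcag
AKR1C3: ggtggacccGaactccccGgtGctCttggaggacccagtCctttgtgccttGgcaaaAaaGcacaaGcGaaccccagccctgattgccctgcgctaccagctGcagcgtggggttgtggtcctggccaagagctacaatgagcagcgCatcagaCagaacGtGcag
AKR1C4: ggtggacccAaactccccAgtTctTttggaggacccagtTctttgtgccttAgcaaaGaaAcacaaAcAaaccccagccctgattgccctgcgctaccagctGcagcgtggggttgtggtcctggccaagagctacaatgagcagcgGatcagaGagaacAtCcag
AKR1C2 and AKR1C3 had 0 differences in this exon. AKR1C1 differed from each of them at 1 base and AKR1C4 at 14.

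By contrast, a 117-base exon of the same run held 27 such positions. It is shown as an example of letters by which a read can be placed, and is numbered 4 in AKR1C1, 3 in AKR1C3 and 5 in AKR1C2 and AKR1C4.
AKR1C1: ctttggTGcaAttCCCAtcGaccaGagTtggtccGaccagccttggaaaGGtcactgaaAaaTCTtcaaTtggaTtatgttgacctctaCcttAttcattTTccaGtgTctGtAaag
AKR1C2: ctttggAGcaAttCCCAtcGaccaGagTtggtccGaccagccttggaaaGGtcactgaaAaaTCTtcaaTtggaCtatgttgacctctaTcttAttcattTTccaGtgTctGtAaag
AKR1C3: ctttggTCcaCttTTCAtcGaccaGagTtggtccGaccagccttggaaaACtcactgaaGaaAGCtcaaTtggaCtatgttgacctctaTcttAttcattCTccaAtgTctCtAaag
AKR1C4: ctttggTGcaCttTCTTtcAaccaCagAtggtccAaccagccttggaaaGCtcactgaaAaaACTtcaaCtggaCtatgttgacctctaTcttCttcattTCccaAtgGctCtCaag
Here AKR1C3 differed from AKR1C2 at 14 bases and from AKR1C1 at 15, whereas AKR1C1 and AKR1C2 differed at 3. Over the whole run, AKR1C1 and AKR1C2 shared 56.3% of their 42-base windows, and there their values are uncertain against each other. Values of AKR1C3 are uncertain along less of the run. Exons outside the run were not compared. How the authors placed reads that match several copies was not stated in the labels. The AKR1B genes were less alike, with 195 differences in 842 bases over 8 internal exons.

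Reads assigned to genes numbered 109693681 in MIP/5FU and 200141071 in MIP101, and levels are given as RPM, gene reads scaled by this total. A gene was tested where it had at least 100 reads over both libraries. It was called where the ratio of MIP/5FU over MIP101 reached 2-fold and its 95% counting interval excluded no change. Intervals cover counting error only, and PCR copies of a molecule were not marked, so true errors are wider. All 13 colon epithelial markers were tested and 9 of them lay at 10 RPM or more in both lines, with a summed level of 9043 RPM in MIP/5FU and 8283 RPM in MIP101, most of it KRT8 and KRT18. Of the 13, KRT20 was called 6.77-fold higher and VIL1 and LGALS4 2.34-fold and 2.47-fold lower. Hepatocyte markers summed to 8.10 RPM in MIP/5FU and 10.4 RPM in MIP101, and APOA1, APOA2, APOH, TTR and FGA had no read in either line. Most of these sums was SERPINA1, at 3.90 RPM in MIP/5FU and 6.72 RPM in MIP101, and CYP2E1, at 2.32 RPM in MIP/5FU and 2.42 RPM in MIP101. Reads of SERPINA1 covered 74.3% of its bases in MIP/5FU and 83.3% in MIP101. Blood and stroma markers summed to 11.9 RPM in MIP/5FU and 6.91 RPM in MIP101, with HBB, COL1A2 and DCN at 0 in both. Most of these sums was ACTA2, at 9.13 RPM in MIP/5FU and 4.82 RPM in MIP101.

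Among the tested members AKR1C3 alone was called higher in MIP/5FU. AKR1C3, which reduces androstenedione to testosterone and makes prostaglandin F, was 2.62-fold higher in the resistant line and was the most abundant member there by normalized coverage per base, though AKR1A1 had slightly more reads. AKR1A1, AKR1B1 and AKR1C2 differed by less than 1.5-fold, AKR1B10 had a value 1.90-fold lower that did not pass the 2-fold threshold, and AKR1C1 and AKR1C4 had too few reads to be tested. Of the 7 members 5 were tested, 1 was called higher and none lower, where 5.62% of all 15369 genes tested were called, 2.53% higher and 3.09% lower. The median log2 ratio of the 5 tested members was 0.15, against 0.03 over all genes tested.

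**Figure D1:**
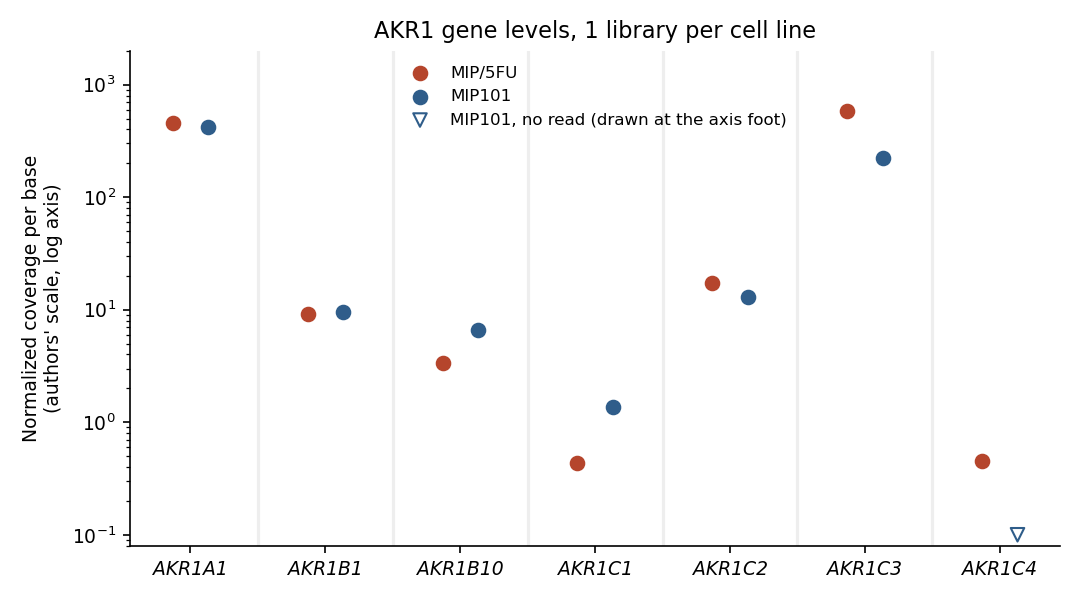
Normalized coverage per base of the 7 AKR1 genes on a log axis, with MIP/5FU on the left of each pair and MIP101 on the right, 1 library each and no error bars. AKR1C3 stands at 578 in MIP/5FU and 225 in MIP101, AKR1A1 at 460 and 423, and the open triangle marks AKR1C4, which had no read in MIP101.

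AKR1C3 (ENSG00000196139) spans 5126583 to 5139878 on chromosome 10 of hg18 and has 9 exons. It had 8951 reads in MIP/5FU and 6234 reads in MIP101, or 81.6 RPM in MIP/5FU and 31.1 RPM in MIP101. The ratio was 2.62-fold (95% interval 2.54 to 2.71), a log2 ratio of 1.39 that lay at percentile 99.0 among the genes tested. Every base of the gene was covered in both libraries.

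The rise of AKR1C3 ran along its whole transcript. Normalized coverage per base of the 9 exon regions lay between 289 and 778 in MIP/5FU, with a median of 630, and between 98.1 and 331 in MIP101, with a median of 248. The log2 ratios of the regions ranged over 1.18 to 1.58. The 117-base exon printed above, with its 27 positions that are not alike in all copies, had 470 in MIP/5FU and 211 in MIP101, a log2 ratio of 1.18 and the lowest of the 9. The 166-base exon whose letters AKR1C2 shares had 662 in MIP/5FU and 248 in MIP101, a log2 ratio of 1.44. Every region was higher in MIP/5FU, and the ratios of the regions lay within 1.5-fold of each other.

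Junction reads of AKR1C3 gave the same direction. The 8 junctions between successive exons together held 1493 reads in MIP/5FU and 1183 reads in MIP101, a 2.30-fold ratio (95% interval 2.13 to 2.49). Single junctions had log2 ratios of 0.95 to 1.52, and all were above 0. The highest was the junction of exons 1 and 2, with 27 reads in MIP/5FU and 17 reads in MIP101, and the lowest that of exons 5 and 6, with 152 reads in MIP/5FU and 144 reads in MIP101. A splicing index was formed by subtracting the gene's log2 ratio from the feature's, and a feature was called at an absolute index of 1 or more with a counting interval of 0.1% error that excluded 0. None of the 9 exon regions and 8 junctions tested in AKR1C3 was called, with indices of -0.44 to 0.19.

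**Figure D2:**
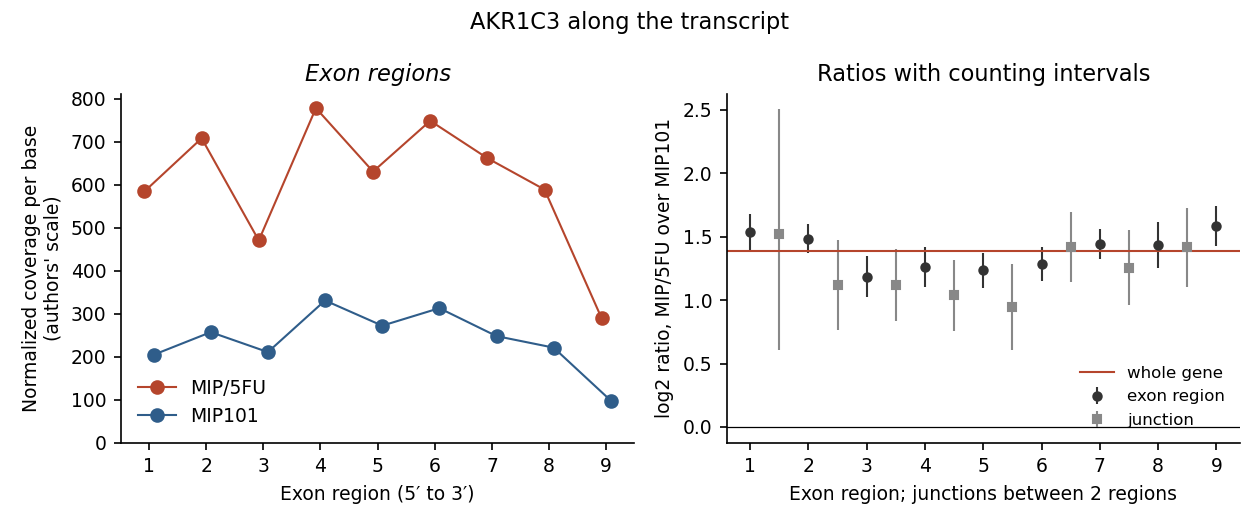
AKR1C3 from its 5′ to its 3′ end: normalized coverage per base of the 9 exon regions in MIP/5FU and MIP101 (left), and log2 ratios of MIP/5FU over MIP101 with 95% counting intervals for exon regions and for the junctions between them (right). Every point lies above 0, between 0.95 and 1.58, around the whole-gene value of 1.39.

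AKR1C2 (ENSG00000151632, 5021966 to 5050207 on chromosome 10, minus strand), which inactivates dihydrotestosterone, had 350 reads in MIP/5FU and 471 reads in MIP101. This was 3.19 RPM in MIP/5FU and 2.35 RPM in MIP101, a ratio of 1.36-fold (1.18 to 1.56) that did not reach 2-fold. Coverage reached 94.7% of its bases in MIP/5FU and 96.3% in MIP101. Along the internal exons compared above, 56.3% of the 42-base windows of AKR1C2 occurred letter for letter in AKR1C1 and 23.0% in AKR1C3. AKR1C3 had 25.6 times as many reads as AKR1C2 in MIP/5FU and 13.2 times as many in MIP101. Within shared windows, reads that strayed from either copy cannot be told apart from those of AKR1C2, and how many did so was not tested.

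Inside the 166-base exon of AKR1C2 the data held the one feature of the family that was called. The annotation places further exon-intron boundaries within this exon, at 5027511 to 5027676, and 4 of their windows of 62 bases had at least 20 reads. These windows had 48, 105, 117 and 159 reads in MIP/5FU and 31, 75, 97 and 99 reads in MIP101, in the same order. The other 4 tested boundaries of AKR1C2 had 6 to 13 reads in MIP/5FU and 12 to 18 reads in MIP101, and 6 junctions of equal length had 2 to 13 reads in MIP/5FU and 5 to 20 reads in MIP101. The 4 windows inside the exon thus stood above these other features of the gene in both lines. The windows overlap each other, and whether a read counted in more than 1 of them is not stated, so their sum is given without an interval. Their summed reads were 2.59-fold higher in MIP/5FU, whereas the other boundaries gave 1.09-fold (0.704 to 1.66) and the junctions 1.27-fold (0.865 to 1.84). The AKR1C3 junctions, of equal length, gave 2.30-fold (2.13 to 2.49), and the whole gene AKR1C3 gave 2.62-fold.

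The window over bases 95 to 156 of the exon, counted from its 5′ end and named E9_Dc, had an index of 1.11 (interval 0.41 to 1.83) and was the 1 called boundary of 13 tested in the family. Over all genes 0.857% of tested boundaries were called. The call was lost, leaving 0 in the family, where the median of the gene's boundaries served as the gene's ratio. Of the 8 tested boundaries of AKR1C2, 4 are the windows inside this exon, E9_Dc among them. Their median log2 ratio was 0.88, against 0.44 for the gene, so this alternative is not independent of the window itself. Its letters are identical in AKR1C2 and AKR1C3, and so are those of the windows E9_Db and E9_Ac. The window E9_Dd reaches 6 bases beyond the exon. The window E9_Ab covers bases 24 to 85 of the exon and so overlaps nearly all of E9_Db, at bases 22 to 83. E9_Ab had no read in either line, whereas E9_Db had 48 in MIP/5FU and 31 in MIP101. Exon regions of AKR1C2 in the same exon did not share the excess. They had 4.51 bases of reads per base in MIP/5FU and 6.34 in MIP101, against 8.81 in MIP/5FU and 12.0 in MIP101 over the whole gene. In the same unit the 4 windows with at least 20 reads had 30.5 to 102 in MIP/5FU and 19.7 to 64.8 in MIP101. Why the windows and the exon regions differ over the same letters was not tested. Outside this exon, the log2 ratio of AKR1C2 from its exon regions was 0.45 (0.24 to 0.65). Which copy the reads inside the exon came from cannot be told apart from these letters.

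**Figure D3:**
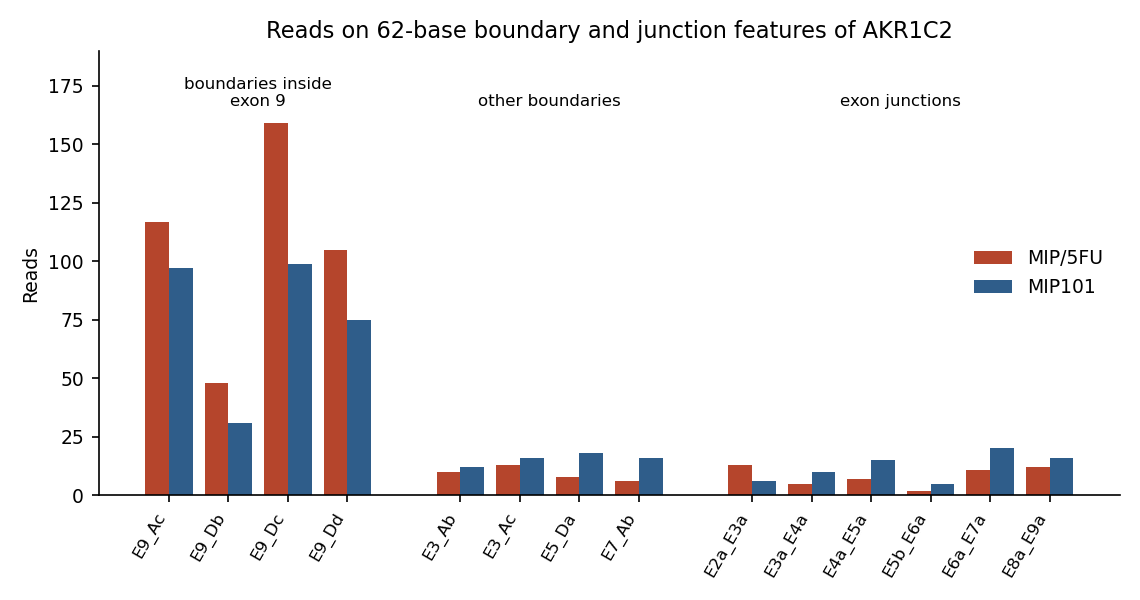
Reads on features of 62 bases in AKR1C2: the 4 boundaries inside the 166-base exon, the 4 other tested boundaries and 6 exon junctions, each with MIP/5FU on the left and MIP101 on the right. The boundaries inside the exon hold 48 to 159 reads in MIP/5FU and 31 to 99 in MIP101, and no other feature exceeds 13 reads in MIP/5FU or 20 in MIP101.

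No exon region, junction or transcript of AKR1C2 was called. Its lowest index was -0.92 at the boundary E7_Ab, with 6 reads in MIP/5FU and 16 reads in MIP101, and its highest was E9_Dc. The exon region of exon 2, a noncoding exon, had an index of 0.43. Of 3 AKR1C2 transcripts with features of their own, 1 had reads, with an index of 0.24.

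AKR1C1 (ENSG00000187134, 4995566 to 5010445 on chromosome 10), which inactivates progesterone, had 11 reads in MIP/5FU and 60 reads in MIP101. This lay under the minimum for testing. The ratio was 2.88-fold lower in MIP/5FU (1.56 to 6.31, 0.5 reads added to each library). The reads covered 18.6% of its bases in MIP/5FU and 53.5% in MIP101. Along the 7 internal exons compared above, 5 had no coverage in MIP/5FU and the other 2 held 2 and 23 bases of reads. All 7 had some coverage in MIP101, but exon 10, with the 23 bases in MIP/5FU, held only 3 bases in MIP101. Junction reads numbered 0 in MIP/5FU and 5 in MIP101. With 18 letters separating AKR1C1 from AKR1C2 over these exons, the direction rests on few reads that can be placed.

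AKR1C4 (ENSG00000198610, 5227426 to 5250912 on chromosome 10), a liver enzyme of steroid and bile acid metabolism, had 9 reads in MIP/5FU and 0 reads in MIP101. Against a floor of 3 reads in MIP101 its 9 reads were at least 5.47-fold higher, and the counting interval, which takes in the error of the 9 reads, ran from 3.601-fold. The level in MIP/5FU was 0.0820 RPM, and a count of 0 allows up to 0.0150 RPM in MIP101. No junction of AKR1C4 had a read in either line. Hepatocyte markers summed to 8.10 RPM in MIP/5FU and 10.4 RPM in MIP101, most of it SERPINA1 and CYP2E1, as given above. Whether cells with liver traits had a part in the AKR1C4 value was not tested. AKR1C3 had 8951 reads in MIP/5FU, and 16.5% of the 42-base windows of AKR1C4 occurred letter for letter in AKR1C3. The internal exons compared above differed between these copies at 3, 10, 13, 14, 16, 18 and 21 bases. In this order they held 117, 74, 30, 40, 28, 0 and 0 bases of reads in AKR1C4 in MIP/5FU. Whether reads that strayed from AKR1C3 are among the 9 was not tested.

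Taken as a group, the AKR1C genes had 9321 reads in MIP/5FU and 6765 reads in MIP101, a 2.51-fold ratio (2.44 to 2.59) that is not altered by how assigned reads were split among the copies. AKR1C3 took 96.0% of them in MIP/5FU (exact 95% interval 95.6 to 96.4) and 92.2% in MIP101 (91.5 to 92.8). AKR1C2 took 3.75% in MIP/5FU and 6.96% in MIP101. The share of AKR1C1 was 0.118% in MIP/5FU and 0.887% in MIP101, and that of AKR1C4 was 0.0966% in MIP/5FU and 0 of 6765 reads in MIP101, which allows up to 0.0443%. By junction reads the share of AKR1C3 was 96.6% in MIP/5FU and 93.7% in MIP101.

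**Figure D4:**
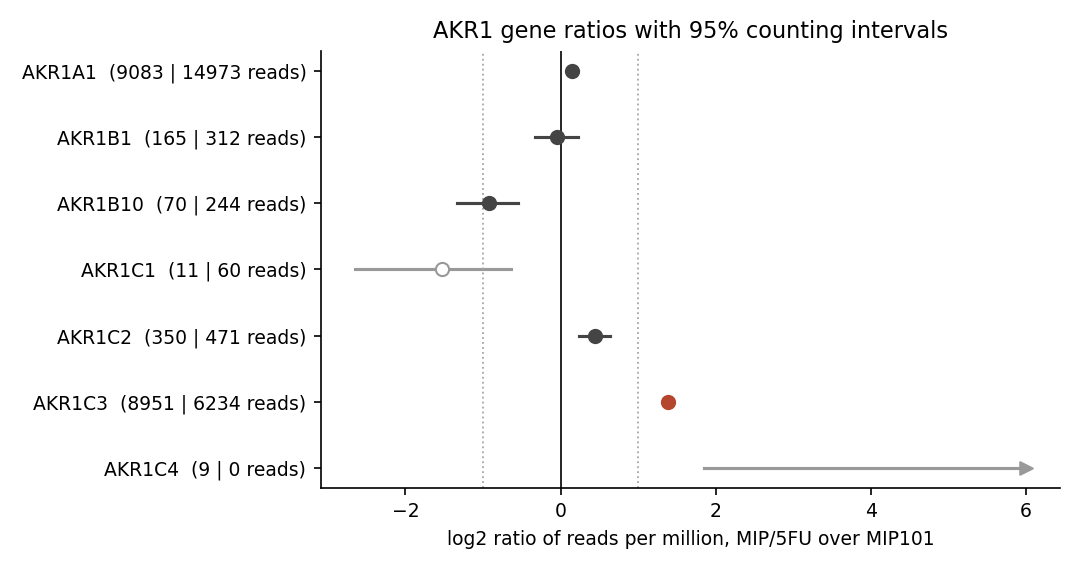
Log2 ratios of RPM, MIP/5FU over MIP101, with 95% counting intervals; read numbers stand beside each gene with MIP/5FU first, and dotted lines mark 2-fold. AKR1C3 alone lies past 2-fold among the tested genes, open or grey marks had under 100 reads, and the arrow of AKR1C4 starts at the lower limit of its interval because MIP101 had no read.

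AKR1B10 (ENSG00000198074, 133862884 to 133876693 on chromosome 7), an intestinal reductase of retinaldehyde and of reactive aldehydes, had 70 reads in MIP/5FU and 244 reads in MIP101. This was 0.638 RPM in MIP/5FU and 1.22 RPM in MIP101, 1.90-fold lower (1.46 to 2.53) with a log2 ratio of -0.93, short of the 2-fold threshold. At 1.5-fold, where 16.8% of all genes tested were called, it was called lower. The position of the reads differed along the gene. Exon region 1, in which 256 of 386 bases were masked in the deposited annotation, held 82.4% of the coverage in MIP/5FU and 56.4% in MIP101. The other 9 regions held the equivalent of 12 reads in MIP/5FU and 105 reads in MIP101, 4.63-fold lower (2.63 to 9.58). Of these 9 regions 4 had no coverage in MIP/5FU and none was empty in MIP101. Coverage reached 37.7% of the bases in MIP/5FU and 91.0% in MIP101. By exon region 1 alone the log2 ratio was -0.41 (-0.89 to 0.05), so the size of the difference depended on whether this region was counted.

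AKR1B1 (ENSG00000085662, 133777649 to 133794428 on chromosome 7, minus strand), the aldose reductase that turns glucose into sorbitol, had 165 reads in MIP/5FU and 312 reads in MIP101. Its level was 1.504 RPM in MIP/5FU and 1.56 RPM in MIP101, a log2 ratio of -0.05 with an interval of -0.33 to 0.23. Reads were all but absent from the 5′ part of the annotated transcript in both lines. Exon regions 1 to 3 make up 30.4% of the bases and held 0.0306% of the coverage in MIP/5FU and 1.25% in MIP101. Per base, these regions had 0.0700% of the coverage of the other regions in MIP/5FU and 2.90% in MIP101. This share was also taken in 2102 genes with a single annotated transcript, AKR1B1 among them. Each had at least 8 exon regions, 300 reads in MIP101 and 100 reads in MIP/5FU. Their median share was 70.8% in MIP/5FU and 70.4% in MIP101. Of these genes 1.57% in MIP/5FU and 2.71% in MIP101 lay at or below AKR1B1. Over regions 4 to 10 the log2 ratio was -0.03. Values of AKR1B1 therefore describe the 3′ part of the gene in these libraries.

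**Figure D5:**
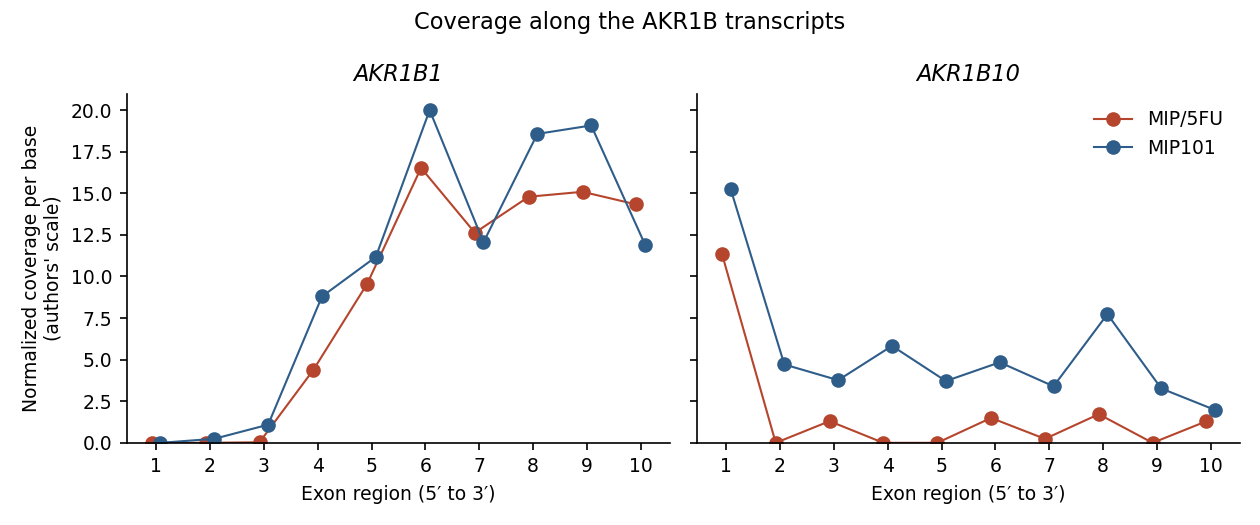
Normalized coverage per base of the 10 exon regions of AKR1B1 and AKR1B10, in order from the 5′ end, in MIP/5FU and MIP101. AKR1B1 has almost no coverage in regions 1 to 3 of either line, and AKR1B10 in MIP/5FU falls to 1.72 or less after region 1, against 1.97 to 7.73 in MIP101.

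None of the features tested in the AKR1B genes was called. The 4 exon regions tested in AKR1B1 had indices of -0.27 to 0.34, and its 1 tested junction, between exons 5 and 6, had an index of 0.39. Exon region 1 of AKR1B10 had an index of 0.52 and its transcript one of -0.11.

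AKR1A1 (ENSG00000117448, 45789085 to 45808307 on chromosome 1), an aldehyde reductase of broad specificity found in most tissues, had 9083 reads in MIP/5FU and 14973 reads in MIP101. This was 82.8 RPM in MIP/5FU and 74.8 RPM in MIP101, a ratio of 1.11-fold (1.08 to 1.14) that excluded no change without reaching the threshold. Intervals excluded no change in 75.6% of all genes tested, so at this depth they separate most genes. The 10 exon regions of AKR1A1 had log2 ratios of 0.10 to 0.25.

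The AKR1A1 transcripts differed in their 5′ noncoding exon 2, and both forms were present in both lines. Reads that joined exon 1 directly to exon 3 numbered 72 in MIP/5FU and 97 in MIP101, against an average of 69.5 in MIP/5FU and 130 in MIP101 on the junctions that include exon 2. Skipping of exon 2 therefore took 50.9% in MIP/5FU (42.2 to 59.2) and 42.7% in MIP101 (36.2 to 49.4), with intervals that overlapped. Intervals of skipping shares treat the average as a count, so they only approximate counting error, and the shares of the lines were not tested against each other. Exon 7, a coding exon of 200 bases, was skipped in 25.7% in MIP/5FU (20.6 to 31.4) and 23.5% in MIP101 (19.7 to 27.8), on 69 reads in MIP/5FU and 106 reads in MIP101. The junction that skips exon 2 is in 1 Ensembl transcript. That skipping exon 7 is in no Ensembl transcript and is backed by 1 mRNA and 5 ESTs. The junction from exon 4 to exon 6, with no Ensembl transcript, mRNA or EST behind it, took 5.07% in MIP/5FU and 6.08% in MIP101. No AKR1A1 junction was called, with indices of -0.31 to 0.29. The lowest and highest of the exon regions were -0.05 and 0.10. Its highest index was 1.05 at the boundary after exon 7, with 19 reads in MIP/5FU and 15 reads in MIP101 and an interval of -0.67 to 2.87. Of its annotated transcripts, ENST00000351829 had an index of 0.32 and ENST00000372070 one of -0.06.

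Over the whole family, none of 30 exon regions, 24 junctions and 6 transcripts tested was called, where 0.266%, 0.154% and 0.683% of those of all genes were.

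Levels between members can be compared only per length, and the order differed between the lines. On the scale of normalized coverage per base the order in MIP/5FU was AKR1C3 (578), AKR1A1 (460), AKR1C2 (17.2), AKR1B1 (9.13), AKR1B10 (3.37), AKR1C4 (0.454) and AKR1C1 (0.433). In MIP101 it was AKR1A1 (423), AKR1C3 (225), AKR1C2 (12.9), AKR1B1 (9.62), AKR1B10 (6.61), AKR1C1 (1.35) and AKR1C4 (0). In MIP/5FU, AKR1C3 stood 1.26 times above AKR1A1 (1.21 to 1.29), whereas in MIP101 AKR1A1 stood 1.88 times above AKR1C3 (1.84 to 1.95). AKR1C4 and AKR1C1 in MIP/5FU were the only neighbours in either order whose counting interval spanned 1 (0.406 to 2.94). The 7 members together had 169.9 RPM in MIP/5FU and 111.4 RPM in MIP101.

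The protein-coding genes whose levels in both lines were nearest to AKR1C3 were looked up among 12060 genes with at least 500 reads, by distance over the log2 normalized coverage of the 2 libraries. They were PTPRF, with 486 in MIP/5FU and 251 in MIP101, NPDC1, with 459 in MIP/5FU and 230 in MIP101, and DCI, with 536 in MIP/5FU and 280 in MIP101.

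The genes around the loci were called about as rarely as all genes tested, of which 5.62% were. Of the 5 nearest tested protein-coding genes on each side of the AKR1C cluster none was called, and their log2 ratios ran from -0.40 to 0.65 with a median of -0.07. None of the 10 around AKR1A1 was called (median 0.24). Around the AKR1B genes 1 of 10 was called: PODXL, a sialomucin of the cell surface, was 2.13-fold lower, with 17988 reads in MIP/5FU and 69964 reads in MIP101. The median there was -0.03.

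Genes that share substrates or regulation with the family were described next, from 7 lists holding 91 tested genes, of which 1 was called higher and 6 lower, beside 2.53% higher and 3.09% lower over all genes tested. These counts are too small to be read as a departure from that background. Among 15 steroid enzymes 3 were called lower and none higher, with a median log2 ratio of -0.30, where 3.09% of all genes tested were called lower. HSD3B1, which makes progesterone and androstenedione, had 10 reads in MIP/5FU and 997 reads in MIP101, 52.1-fold lower. It has a close copy in HSD3B2, which had 7 reads in MIP/5FU and 9 reads in MIP101. How reads were split between these copies was not tested. HSD17B12, a ketoacyl-CoA reductase, was 2.45-fold lower and HSD3B7, an enzyme of bile acid synthesis, 2.37-fold lower. AKR1C3, which also acts on steroids, was higher.

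Of 11 prostaglandin enzymes 1 was called higher and 3 lower, with a median of -0.04, where 5.62% of all genes tested were called. With a minimum of 500 reads 1 of these 4 calls was left, since the others rest on fewer reads. The cyclooxygenases PTGS2 and PTGS1, which start prostaglandin synthesis, were 2.96-fold and 2.36-fold lower. PTGS2 had 77 reads in MIP/5FU and 418 reads in MIP101, and PTGS1 had 21 reads in MIP/5FU and 92 reads in MIP101. PTGR1, a prostaglandin reductase, was 2.03-fold lower. TBXAS1, thromboxane synthase, was 2.38-fold higher on 85 reads in MIP/5FU and 65 reads in MIP101.

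No gene was called in the other lists, apart from 1, DHRS4, a carbonyl reductase that was called lower under median scaling, TMM scaling and the authors' normalized coverage. Among 25 regulators and targets of NRF2 the median was 0.25, SLC7A11, the cystine transporter, was at 1.90-fold higher and ABCC2, an export pump, at 1.89-fold lower. The 18 carbonyl reductases and aldehyde dehydrogenases had a median of -0.11, with DHRS4 at 1.98-fold lower and ALDH3A1 at 1.90-fold higher. The 11 retinoid enzymes had a median of 0.00, with ALDH1A3, a retinaldehyde dehydrogenase, at 1.59-fold higher and RDH11, a retinal reductase, at 1.40-fold lower. Of 10 enzymes of polyols, methylglyoxal and uronate HAGHL was at 1.82-fold and HAGH at 1.57-fold higher, and the median was 0.04. The 7 other tested genes of the aldo-keto reductase superfamily had a median of 0.36, with AKR7L at 1.63-fold and AKR7A2, an aflatoxin aldehyde reductase, at 1.34-fold higher.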

How the data were processed

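Polyadenylated RNA was sequenced in 1 library per line. Per the labels, DNase-treated RNA gave random-primed cDNA that was sheared, size selected and amplified by 10 cycles of PCR. No strand is marked, and genes that overlap can therefore not be separated. Features were built from Ensembl 53 on hg18, per the labels and file names; the aligner was not given in these sources. The authors deposited raw read counts of genes, junctions and boundaries. The authors also deposited coverage signal, as summed bases and as a normalized value per base scaled by 1 factor per library and kind of file, and the percent of bases covered. Exon region and transcript files hold no read counts, although the design assumed them, so read equivalents were computed as summed bases over the mean bases per read, 39.8 in MIP/5FU and 40.4 in MIP101.

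Each gene's ratio is the log2 quotient of its shares of all gene reads, 0.5 reads added, with an exact conditional binomial 95% interval, and 100 reads over both libraries were required. The 446 Y-linked genes were left out. Exon regions and transcripts needed 50 read equivalents for an index, and junctions and boundaries 20 reads, and the gene needed 200 reads in all and 10 per library. Shares have Clopper-Pearson intervals, and genes at 0 are bounded by a floor of 3 reads. A skipping share is the reads of the skipping junction over their sum with the mean of the junctions that include the exon. Members and lists were chosen with earlier results of these data known. Named genes were the 7 members, up to 4 called genes per list or else the 2 with the largest ratio, called neighbours of each locus, the 3 genes nearest in level to each called member, and called features with the highest and lowest index of each gene. Alternatives were median and TMM scaling, the normalized coverage, read minima of 0 and 500, a 1.5-fold threshold, junction reads alone and unmasked exon regions. TMM factors came from edgeR 4.0.16 in R 4.3.3. All else ran in Python 3.11.15, with scipy 1.17.1, pandas 2.3.3, matplotlib 3.10.9 and numpy 2.4.6.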

Additional observations from a re-analysis of the deposited data

How the results depend on the processing

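The direction of every member's ratio held under each alternative run, and AKR1C3 stayed called in all 9, with log2 ratios of 1.27 to 1.43. AKR1B10 was called at a 1.5-fold threshold (log2 ratio -0.93), by junction reads alone (-2.47) and over exon regions at least 90% unmasked (-2.21). The junction value rests on few reads: 7 junctions of AKR1B10 had reads, 2 of them in both lines, and none had enough for an index. Without a minimum of reads AKR1C1 (-1.53) and AKR1C4 (5.12, fitted with the 0.5 added reads and no bound) were called. Over all genes the calls higher and lower were 968 and 858 without a minimum, 220 and 299 at 500 reads, and 1333 and 1250 at 1.5-fold. In the 7 lists the calls higher were 2 without a minimum, 0 at 500 reads and 9 at 1.5-fold, where 12 were lower. The AKR1C3 share of AKR1C signal was 96.6% in MIP/5FU and 93.7% in MIP101 by junction reads, and 97.0% in MIP/5FU and 94.0% in MIP101 by normalized coverage. The called boundaries numbered 0 with the median of a gene's boundaries as its ratio, 3 with a 95% interval and 2 at 1.5-fold. The causes were not tested, apart from the thresholds themselves. Scaling by the median or by TMM factors moved every log2 ratio by 0.03 or 0.05. AKR1C2 outside its 166-base exon and AKR1B1 over regions 4 to 10 were chosen after seeing the data. No replicate could be left out with 1 library per line. No paired analysis was possible because each line has 1 library and the labels give no replicate numbers. Depth limits AKR1C1, AKR1C4 and AKR1B10 in MIP/5FU, with 11, 9 and 70 reads.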

Other observations

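AKR1D1, the steroid reductase that makes bile acid precursors, had 139 reads in MIP/5FU and 219 reads in MIP101, a log2 ratio of 0.21, but these covered 11.2% of its bases in MIP/5FU and 14.8% in MIP101. AKR1CL1 had 0 reads in MIP/5FU and 5 reads in MIP101, and AKR1CL2 had no read in either line. The voltage-gated potassium channel subunits KCNAB1, KCNAB2 and KCNAB3, which share the aldo-keto reductase fold, had log2 ratios of -0.23, 0.30 and 0.36. CYP19A1, the aromatase that turns androgens into estrogens, had 35 reads in MIP/5FU and 27 reads in MIP101, under the minimum for testing, over 22.2% of its bases in MIP/5FU and 18.1% in MIP101.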
